A study of Oryctolagus cuniculus with 20 samples.

Results

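Endothelial cells line every blood vessel, and 7 genes that mark them were followed in rabbit artery transplanted into vein, in unoperated vein and in unoperated artery: VWF, PLVAP, EMCN, ENG, ESAM, APLNR and CALCRL. They were chosen by name, with earlier results of these data known. Each was found by its gene symbol in the deposited table, with 1 gene identifier per symbol, and they make up 7 of its 23669 genes. The identifiers are ENSOCUG00000006783 for VWF, ENSOCUG00000016890 for PLVAP, ENSOCUG00000007231 for EMCN, ENSOCUG00000007136 for ENG, ENSOCUG00000002623 for ESAM, ENSOCUG00000003078 for APLNR and ENSOCUG00000013954 for CALCRL. All 7 belonged to the 8657 genes that reached 1 FPKM in at least 4 libraries and were tested. FPKM counts fragments per kilobase of transcript, scaled to the size of the library, a level per length that allows genes to be compared with each other.

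Total RNA of rabbit (Oryctolagus cuniculus) vessels was sequenced in 20 libraries, 5 groups of 4. Of the groups 2 are grafts, pieces of common carotid artery that had been moved into a vein and were taken on day 30 or day 14 after surgery. Unoperated external jugular vein, with no day given, is the vein group. The remaining groups are controls, the opposite carotid artery without operation, taken on day 30 or day 14. Strain, age and sex are not given in the labels, and controls and vein carry the same treatment tag (transplantation) as the grafts. A cell line tag, HASMC, stands on every library and goes against the tissue described in the remaining labels. Libraries of a group are labelled as biological replicates, with no word on separate animals, which means that p-values measure only how far these samples spread, possibly for technical reasons.

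The endothelium holds blood inside the vessel, controls clotting and lets cells and proteins pass, and its gene set differs between arteries, capillaries and veins. VWF is stored in the Weibel-Palade bodies of endothelial cells and is typically more abundant in venous than in arterial endothelium, PLVAP and EMCN are known from capillaries and veins, ENG is a receptor that rises in endothelium that forms new vessels, and ESAM sits at the junctions between cells. APLNR and CALCRL are receptors for peptides that act on vessels, apelin and adrenomedullin. In whole vessel pieces a change in the number of endothelial cells and a change in RNA per cell cannot be told apart.

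The deposited values are FPKM without read counts, so the depth of the libraries is unknown, and sums of FPKM ran between 327807 and 671582. The 4 controls of day 14 were nearly alike: the SD of log2 values had a median over 1265 well-expressed genes of 0.0733 there, compared with 0.189 in grafts of day 30, 0.324 in grafts of day 14, 0.135 in vein and 0.198 in controls of day 30. In each of the other groups the library nearest to a weighted mean of the other 3 lay at a median distance of 0.0775 to 0.0879 on the log2 scale. These mixture-like libraries are graft day 30 replicate 4, graft day 14 replicate 3, vein replicate 4 and control day 30 replicate 2. The rule marks 1 library in each of these groups whatever its distance. Not far behind were vein replicate 3 at 0.103 and graft day 14 replicate 4 at 0.120. Counts of called markers are therefore also given without them, with the controls of day 14 taken as 1 sample, and with both changes.

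Most of the 7 markers were higher in the grafts than in the opposite arteries, and ESAM was the exception. In grafts of day 30, 6 of 7 rose and 0 fell against controls of day 30, where 37.6% of all tested genes were called in either direction, 26% higher and 11.6% lower (limma, Benjamini-Hochberg over all genes). In grafts of day 14, 6 of 7 rose and ESAM fell against controls of day 14, where 53.5% of all tested genes were called, 36.5% higher and 17% lower. The median log2 change of the 7 was 3.16 at day 30 and 2.70 at day 14, beside 0.18 and 0.26 over all tested genes. Grafts and controls did not overlap for 7 of 7 markers at day 30 (34.5% of all tested genes) and for 6 of 7 at day 14 (50.1% of all tested genes), so with shares this large the size of the changes tells more than their count. The count at day 30 was 6, 6 and 5 with the controls of day 14 as 1 sample, without the mixture-like libraries and with both, and at day 14 it was 6 each time, when ESAM was no longer called.

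**Figure D1:**
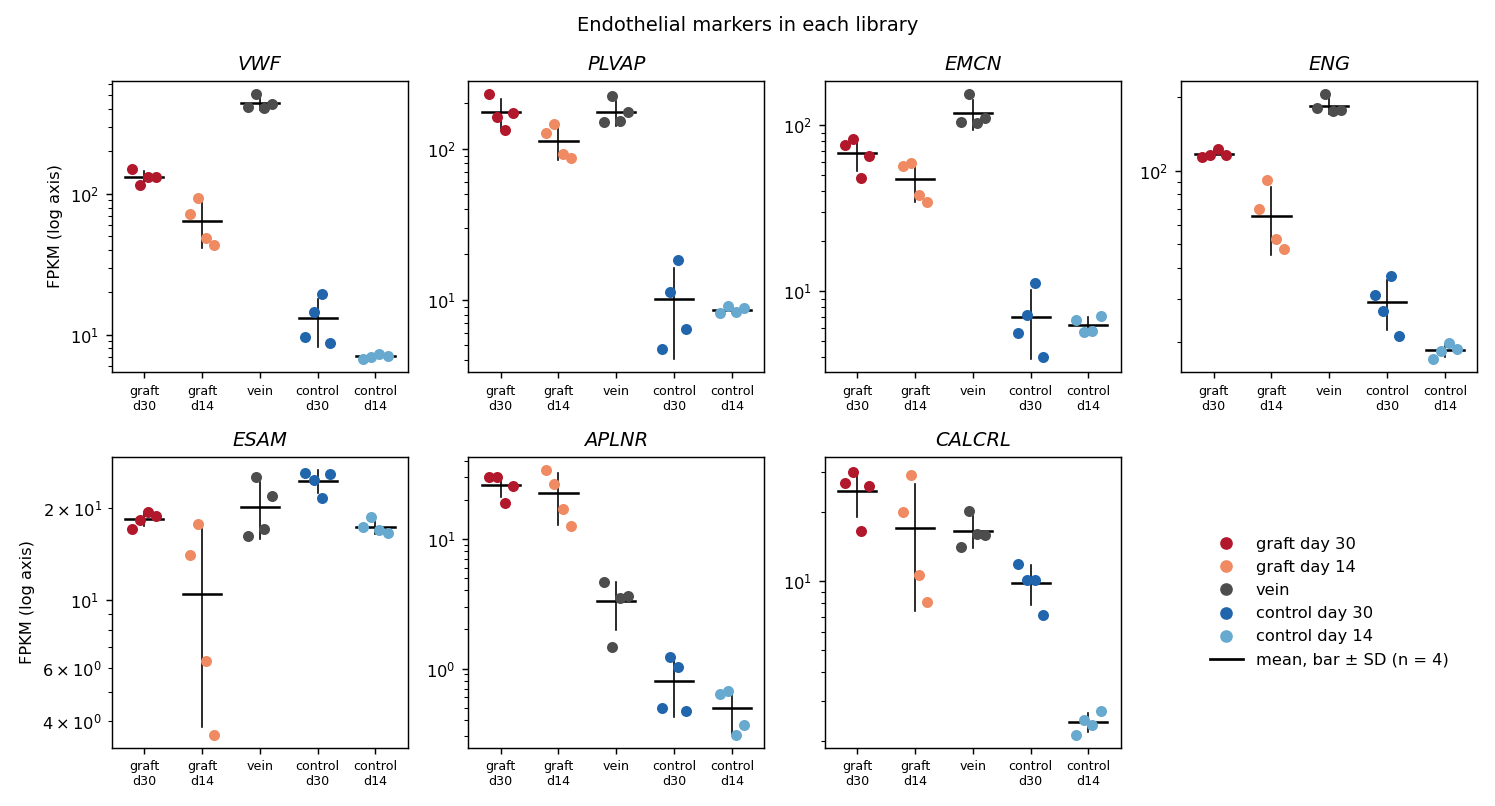
Level of each endothelial marker in each library, in FPKM on log axes whose ranges differ between panels; each point is 1 library, the horizontal line is the mean of 4 libraries and the vertical bar is ± SD. VWF, PLVAP, EMCN and ENG stand high in grafts and vein and low in controls, APLNR stands high in grafts alone, with vein between 1.46 and 4.67 FPKM, and in the ESAM panel grafts of day 14 spread widest, between 3.62 and 17.8 FPKM.

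Unoperated vein also held more of 6 of the 7 markers than unoperated artery, with 0 lower, against the mean of both control groups. In that comparison 37.1% of all tested genes were called, 25.2% higher and 12% lower, and the count stayed at 6 in all 3 settings that set aside doubted libraries. The median log2 change of the 7 was 2.94, beside 0.14 over all tested genes. Vein and controls did not overlap for 6 of 7 markers, against 24.2% of all tested genes.

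Set beside vein, grafts of day 30 were lower in VWF, EMCN and ENG and higher in APLNR, 4 calls among 7 where 33.4% of all tested genes were called, 19.2% higher and 14.2% lower. Grafts of day 14 were lower in VWF, EMCN, ENG and ESAM and higher in APLNR, 5 calls among 7 where 43.3% of all tested genes were called, 25.9% higher and 17.5% lower. Groups did not overlap for 4 of 7 markers at day 30 (34.3% of all tested genes) and for 5 of 7 at day 14 (36.9% of all tested genes). Without the mixture-like libraries the count was 3 at day 30 and 4 at day 14, and with both changes it was 2 and 4.

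The tested genes as a whole tilt upwards in grafts and vein on the FPKM scale. Dividing each library by its median of ratios lowered the median log2 change by 0.16 for grafts of day 30 against their controls, by 0.24 for grafts of day 14 and by 0.14 for vein, and left 1693 of 3167, 2367 of 4504 and 1582 of 3126 called genes higher, against 2253 of 3253, 3161 of 4634 and 2178 of 3214 on the FPKM scale. No called marker changed direction with this scaling.

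VWF encodes von Willebrand factor, the large blood protein that endothelial cells store and release to hold platelets at a wound. Its level was 150, 116, 131 and 131 FPKM in grafts of day 30 (replicates 1 to 4) and 71.8, 93.5, 48.9 and 43.2 FPKM in grafts of day 14. Vein held 417, 510, 405 and 431 FPKM of VWF, against 9.64, 14.5, 19.5 and 8.74 FPKM in controls of day 30 and 6.75, 6.96, 7.28 and 7.10 FPKM in controls of day 14. None of the 5 groups overlapped with another, so the order of the levels was vein, graft day 30, graft day 14, control day 30 and control day 14, with 62.7 times between the highest and the lowest mean.

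Between grafts and controls VWF differed by a log2 change of 3.30 at day 30 (SE 0.22, adjusted p = 5.51e-09) and of 2.96 at day 14 (SE 0.22, adjusted p = 6.43e-09), a ratio of mean FPKM of 10.1 and 9.16. Grafts of day 30 were above grafts of day 14 by 1.09 (SE 0.22, adjusted p = 0.0032). Even so, both stayed below vein, by a log2 change of -1.73 (SE 0.22) and -2.82 (SE 0.22). The rise in vein over the controls, 5.40 (SE 0.19, adjusted p = 1.03e-12), was the largest of any of the 7 markers in these comparisons.

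PLVAP encodes the protein of the thin diaphragms that span the pores and small pits, or caveolae, of endothelial cells. It reached 229, 163, 134 and 173 FPKM in grafts of day 30 and 127, 147, 91.8 and 87.1 FPKM in grafts of day 14. Vein held 151, 222, 154 and 174 FPKM of PLVAP, against 4.72, 11.3, 18.3 and 6.37 FPKM in controls of day 30 and 8.18, 9.07, 8.34 and 8.84 FPKM in controls of day 14. Grafts and vein lay far above both control groups, the grafts of day 30 overlapped with vein and with the grafts of day 14, and the control groups overlapped with each other.

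The log2 change of PLVAP against the controls was 4.11 at day 30 (SE 0.29, adjusted p = 7.84e-09) and 3.54 at day 14 (SE 0.29, adjusted p = 1.54e-08), the largest of the 7 at day 30 by this measure. In vein it was 4.15 (SE 0.25, adjusted p = 6.27e-10). Mean levels in grafts of day 30 and vein, 175 ± 40.1 and 175 ± 33.04 FPKM (SD, n = 4 each), were a log2 change of -0.01 apart (SE 0.29, adjusted p = 0.981), an SE that allows a difference of either sign. Grafts of day 14 lay below vein without overlap, by a log2 change of -0.64 (SE 0.29, adjusted p = 0.0791) that did not pass. PLVAP was the only one of the 7 with more than 1 transcript in the table. Its second transcript carried 24.3% ± 2.88 of the gene's FPKM in grafts of day 30, 30.8% ± 6.14 in grafts of day 14, 29.0% ± 2.06 in vein, 27.1% ± 6.12 in controls of day 30 and 35.8% ± 11.9 in controls of day 14 (SD, n = 4 each), with overlapping ranges.

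EMCN encodes endomucin, a heavily glycosylated surface protein of venous and capillary endothelium. Its level was 76.0, 82.8, 47.9 and 65.4 FPKM in grafts of day 30 and 57.0, 59.7, 38.2 and 34.7 FPKM in grafts of day 14. Vein held 105, 154, 104 and 110 FPKM of EMCN, against 5.61, 7.20, 11.2 and 4.00 FPKM in controls of day 30 and 6.71, 5.66, 5.75 and 7.05 FPKM in controls of day 14. Vein stood above all grafts and all grafts above all controls, while the 2 graft groups overlapped with each other, as did the 2 control groups.

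EMCN rose by 3.16 (SE 0.24, adjusted p = 2.18e-08) in grafts of day 30 against their controls and by 2.70 (SE 0.24, adjusted p = 5.70e-08) in grafts of day 14 against theirs. In vein the rise over the controls was 3.99 (SE 0.21, adjusted p = 1.27e-10). Against vein the grafts of day 30 were lower by a log2 change of -0.80 (SE 0.24, adjusted p = 0.0171), and this call depended on single libraries: it was lost without graft day 30 replicate 3 (adjusted p = 0.0637) and without vein replicate 2 (adjusted p = 0.0622), in a range of 0.000399 to 0.153 over its alternatives. Against vein the grafts of day 14 were lower by -1.32 (SE 0.24, adjusted p = 0.000277).

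ENG encodes endoglin, a co-receptor that presents proteins of the BMP family to their receptors on endothelial cells. Its level was 114, 116, 122 and 115 FPKM in grafts of day 30 and 69.7, 91.8, 52.4 and 47.9 FPKM in grafts of day 14. Vein held 180, 204, 175 and 176 FPKM of ENG, against 31.3, 26.9, 37.3 and 21.2 FPKM in controls of day 30 and 17.1, 18.4, 19.8 and 18.8 FPKM in controls of day 14. As with VWF, none of the 5 groups overlapped with another, and the groups followed the same order. The coefficient of variation of 3.05% in grafts of day 30 was the lowest of the 35 values for 7 markers in 5 groups.

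Of the 6 markers that rose, ENG changed by the smallest factor at day 14. Its log2 change against the controls was 1.99 at day 30 (SE 0.17, adjusted p = 7.54e-08) and 1.72 at day 14 (SE 0.17, adjusted p = 1.65e-07), and 2.94 in vein (SE 0.15, adjusted p = 6.41e-11). Grafts of day 30 held more ENG than grafts of day 14, by 0.87 (SE 0.17, adjusted p = 0.0023), and less than vein, by -0.65 (SE 0.17, adjusted p = 0.00693). The call against vein was lost in 1 of 22 alternatives, with both changes to the doubted libraries (adjusted p = 0.0983, in a range of 2.22e-05 to 0.0983).

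ESAM encodes an adhesion molecule of endothelial junctions, also carried by platelets. Its level was 17.2, 18.4, 19.4 and 18.9 FPKM in grafts of day 30 and 14.0, 17.8, 6.31 and 3.62 FPKM in grafts of day 14. Vein held 16.2, 25.4, 17.1 and 21.9 FPKM of ESAM, against 26.1, 24.8, 21.6 and 26.02 FPKM in controls of day 30 and 17.3, 18.7, 17.0 and 16.7 FPKM in controls of day 14. Its group means spanned 2.36 times, the narrowest span of the 7, in the order control day 30, vein, graft day 30, control day 14 and graft day 14.

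Grafts of day 30 lay below all controls of day 30 without overlap, yet the log2 change of -0.39 (SE 0.30, adjusted p = 0.327) did not pass. It passed with TPM scaling (adjusted p = 0.0375), with only the compared groups in the fit (adjusted p = 0.014) and with library weights (adjusted p = 0.0417), in a range of 0.014 to 0.571 over its alternatives. At day 14 the log2 change was -0.90 (SE 0.30, adjusted p = 0.0165), and graft replicate 2 lay inside the range of the controls. That fall depended on single libraries: it was no longer called without replicate 3 (adjusted p = 0.0577), without replicate 4 (adjusted p = 0.060) or with the controls of day 14 as 1 sample (adjusted p = 0.220), in a range of 1.33e-08 to 0.435 over its alternatives. Against vein, grafts of day 14 were lower by -1.08 (SE 0.30, adjusted p = 0.00716), a call lost in 3 of 22 alternatives, and grafts of day 30 differed by -0.10 (SE 0.30, adjusted p = 0.831). Vein and controls overlapped in ESAM, and their log2 change was -0.06 (SE 0.26, adjusted p = 0.892).

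APLNR encodes the receptor of apelin, found on venous and sprouting endothelium in the mouse. Its level was 29.9, 30.0, 18.9 and 25.4 FPKM in grafts of day 30 and 33.9, 26.4, 16.8 and 12.6 FPKM in grafts of day 14. Vein held only 4.67, 1.46, 3.48 and 3.63 FPKM of APLNR, against 0.50, 1.23, 1.03 and 0.47 FPKM in controls of day 30 and 0.64, 0.67, 0.31 and 0.37 FPKM in controls of day 14. The grafts overlapped with each other and stood above all vein and control libraries, vein stood above the controls, and the control groups overlapped.

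Against vein APLNR was called higher in both graft groups, and none of the other 6 was called higher in either. The log2 change was 2.69 at day 30 (SE 0.28, adjusted p = 1.45e-06) and 2.41 at day 14 (SE 0.28, adjusted p = 2.19e-06), a ratio of means of 7.87 and 6.78. Against the controls it was 3.91 at day 30 (SE 0.28, adjusted p = 1.11e-08) and 3.88 at day 14 (SE 0.28, adjusted p = 3.89e-09). These values are on the scale of log2(FPKM + 1), which understates the change of a gene near 0 in the controls, where the ratio of means was 32.3 at day 30 and 45.1 at day 14. In vein the change over the controls was 1.34 (SE 0.24, adjusted p = 0.000279).

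CALCRL encodes the receptor that binds adrenomedullin or calcitonin gene-related peptide when paired with a RAMP protein. Its level was 26.9, 29.9, 16.5 and 26.01 FPKM in grafts of day 30 and 20.1, 29.2, 10.7 and 8.11 FPKM in grafts of day 14. Vein held 14.0, 20.2, 16.1 and 15.9 FPKM of CALCRL, against 11.8, 10.2, 10.2 and 7.14 FPKM in controls of day 30 and 2.14, 2.48, 2.36 and 2.70 FPKM in controls of day 14. Grafts of both days overlapped with vein, controls of day 30 overlapped with grafts of day 14, and controls of day 14 stood below every other group.

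CALCRL had the smallest rise of the 6 at day 30, a log2 change of 1.24 (SE 0.28, adjusted p = 0.00194), and a rise of 2.24 at day 14 (SE 0.28, adjusted p = 2.91e-06). The call at day 30 was lost in 1 of 22 alternatives, with both changes to the doubted libraries (adjusted p = 0.0527, in a range of 4.14e-07 to 0.0527). The difference between these graft effects, -0.999 (SE 0.40, adjusted p = 0.107), did not pass, and over its alternatives adjusted p lay between 0.0157 and 0.70. In vein CALCRL was higher than in the controls by 1.53 (SE 0.24, adjusted p = 8.18e-05), and neither graft group was called against vein, with log2 changes of 0.53 at day 30 (SE 0.28, adjusted p = 0.160) and -0.11 at day 14 (SE 0.28, adjusted p = 0.782).

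**Figure D2:**
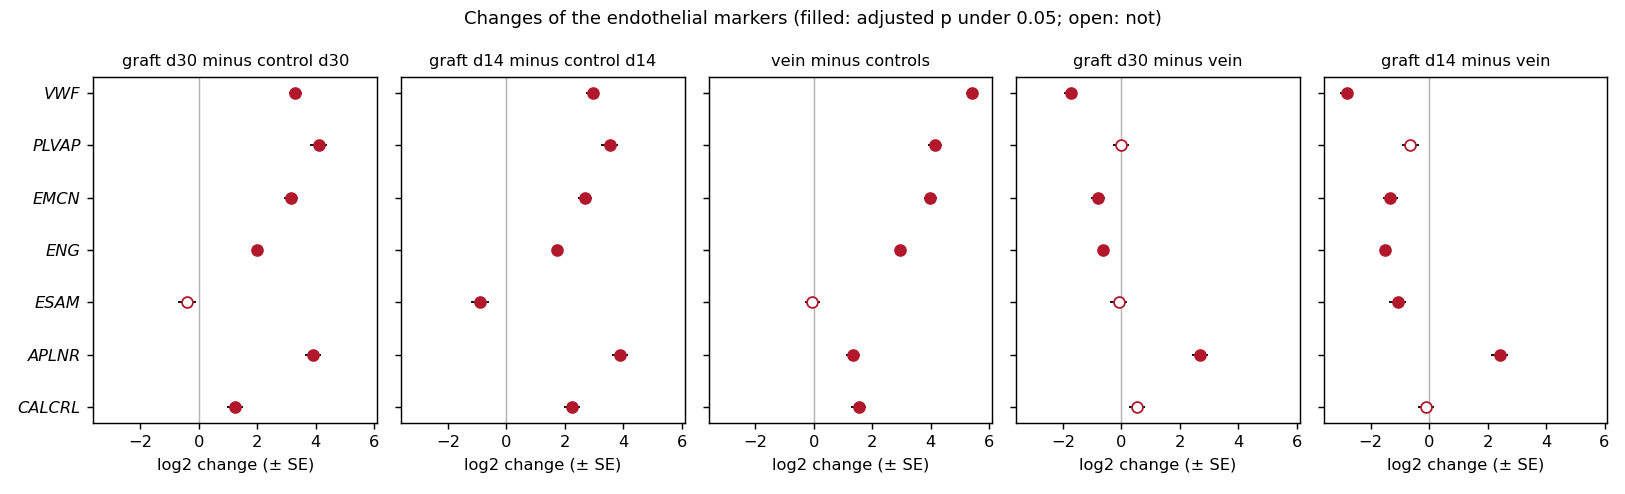
Log2 change of each marker (horizontal axis, ± SE, scale of log2(FPKM + 1)) in 5 comparisons, with filled points for an adjusted p under 0.05 and open points for the others. Grafts and vein both lie right of 0 against the controls except for ESAM, and against vein APLNR lies to the right at both days while VWF, EMCN and ENG lie to the left.

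Between the 2 days, grafts of day 30 were above grafts of day 14 in VWF, ENG and ESAM, 3 calls among 7 where 16.3% of all tested genes were called, 8.01% higher and 8.31% lower. The log2 change of ESAM was 0.98 (SE 0.30, adjusted p = 0.0328), with overlapping groups. Groups did not overlap for 2 of 7, VWF and ENG (15.7% of all tested genes). All 3 calls were lost without the mixture-like libraries (adjusted p = 0.0589, 0.0514 and 0.219), and over their alternatives adjusted p ranged between 2.60e-09 and 0.168 for VWF, between 1.25e-09 and 0.152 for ENG and between 2.20e-08 and 0.365 for ESAM. PLVAP, EMCN, APLNR and CALCRL had log2 changes of 0.63, 0.52, 0.28 and 0.65 with adjusted p of 0.144, 0.158, 0.542 and 0.130.

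The controls also differed between days in some markers. VWF, ENG and CALCRL were higher in controls of day 30 than of day 14, by a log2 change of 0.75 (SE 0.22, adjusted p = 0.0391), 0.60 (SE 0.17, adjusted p = 0.0296) and 1.65 (SE 0.28, adjusted p = 0.00114), 3 calls among 7 where 10.7% of all tested genes were called, 6.28% higher and 4.45% lower. Groups did not overlap for 4 of 7, these 3 and ESAM (22.8% of all tested genes). The calls of VWF and ENG were lost in 13 and 11 of 22 alternatives, with adjusted p between 3.17e-05 and 1.0 and between 0.000216 and 1.0, and that of CALCRL was lost in 2, with the controls of day 14 as 1 sample (adjusted p = 0.251) and with both changes (adjusted p = 0.797), in a range of 2.02e-07 to 0.797. CALCRL averaged 9.83 ± 1.96 against 2.42 ± 0.234 FPKM in controls of day 30 and of day 14, and 24.8 ± 5.78 against 17.0 ± 9.63 FPKM in grafts of day 30 and of day 14 (SD, n = 4 each).

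The change of the graft effect between days was tested as an interaction, the graft effect at day 30 minus that at day 14. By limma 0 of 7 markers passed, where 12.9% of all tested genes were called, 5.38% higher and 7.57% lower, and 1, CALCRL, had an unadjusted p under 0.05. With library weights 6 of 7 passed, where 49.2% of all tested genes were called. The values other than CALCRL's lay between 0.02 for APLNR and 0.57 for PLVAP.

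Each marker was also set against other endothelial genes of the same library. A core of 5 was used, CDH5 and CLDN5 of the junctions, the receptors TIE1 and ROBO4 and the transcription factor ERG. PECAM1 was listed at 0 in all 8 controls and stayed under the filter, which can be a failed estimate, and EGFL7 had no entry under that symbol. The core averaged 4.56 ± 0.128 in grafts of day 30, 3.94 ± 0.891 in grafts of day 14, 3.83 ± 0.0730 in vein, 2.87 ± 0.281 in controls of day 30 and 2.37 ± 0.0862 in controls of day 14 on the scale of log2(FPKM + 1) (SD, n = 4 each). The core itself was therefore higher in grafts and vein than in controls, with 5 of 5 genes called higher at day 30, 4 of 5 at day 14 and 4 of 5 in vein. Of all tested genes 26%, 36.5% and 25.2% were called higher in these comparisons.

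Relative to this core, VWF, PLVAP, EMCN and APLNR were higher in grafts than in controls, and ESAM was lower. The core's own rise is part of each difference, from 2.87 to 4.56 at day 30 and from 2.37 to 3.94 at day 14. A gene with equal levels in grafts and controls would therefore also fall relative to it. ESAM's own log2 change was -0.39 at day 30, not called, and -0.90 at day 14. The share of all tested genes that would pass on this relative scale was not computed. At day 30 the relative difference was 1.61 for VWF, 2.42 for PLVAP, 1.47 for EMCN, 2.22 for APLNR and -2.09 for ESAM, and at day 14 it was 1.39, 1.97, 1.13, 2.31 and -2.47 for the same genes. In each of these the 4 grafts and the 4 controls did not overlap (exact two-sided permutation p = 0.0286, which 4 libraries against 4 cannot go below, adjusted p = 0.0364 over 28 relations). This adjusted p depends on how many of the 28 relations, which share libraries, reach the smallest p, here 22. The nearly alike controls of day 14 counted as 4 libraries in these tests, which were not rerun with them as 1 sample or without the mixture-like libraries. ESAM had the lowest relative difference of the 7 on both days. Its level relative to the core was -0.28 ± 0.20 in grafts of day 30 and -0.64 ± 0.16 in grafts of day 14, against 1.80 ± 0.40 in controls of day 30 and 1.83 ± 0.15 in controls of day 14 (SD, n = 4 each).

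ENG and CALCRL stayed closer to the core. The relative difference of ENG was 0.30 at day 30 (exact permutation p = 0.0571, adjusted p = 0.0696) and 0.15 at day 14 (exact permutation p = 0.514, adjusted p = 0.533). That of CALCRL was -0.45 at day 30 (exact permutation p = 0.0857, adjusted p = 0.10) and 0.67 at day 14 (exact permutation p = 0.0286, adjusted p = 0.0364). A p that misses the threshold does not show that a gene moved with the core. With a pseudocount of 0.1 the value of ENG at day 30 became -0.12. The core gene ROBO4 averaged 1.585 FPKM in controls of day 30 and 1.265 in controls of day 14. The scale of log2(FPKM + 1) understates the rise of such a low core gene, and so can enlarge the relative difference of a marker.

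In vein the pattern was another one. Against controls of day 30, VWF was higher relative to the core by 4.07, PLVAP by 3.16, EMCN by 3.00 and ENG by 1.68, and ESAM was lower by -1.25 (exact permutation p = 0.0286, adjusted p = 0.0364 in each). Against controls of day 14 the values were 4.32, 2.73, 2.56, 1.79 and -1.28 with the same p. The core itself was higher in vein than in controls, and ESAM's own log2 change against the mean of both control groups was -0.06, not called. APLNR differed by 0.26 (exact permutation p = 0.371, adjusted p = 0.40) and 0.02 (exact permutation p = 0.971), so on this scale no rise in vein beyond that of the core was seen. The scale of log2(FPKM + 1) understates the change of APLNR, which was near 0 in the controls. Its ratio of means between vein and controls was 5.07, and its log2 change there ran from 1.17 to 2.18 over its alternatives. CALCRL differed by -0.25 (exact permutation p = 0.229) and 0.90 (exact permutation p = 0.0286).

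**Figure D3:**
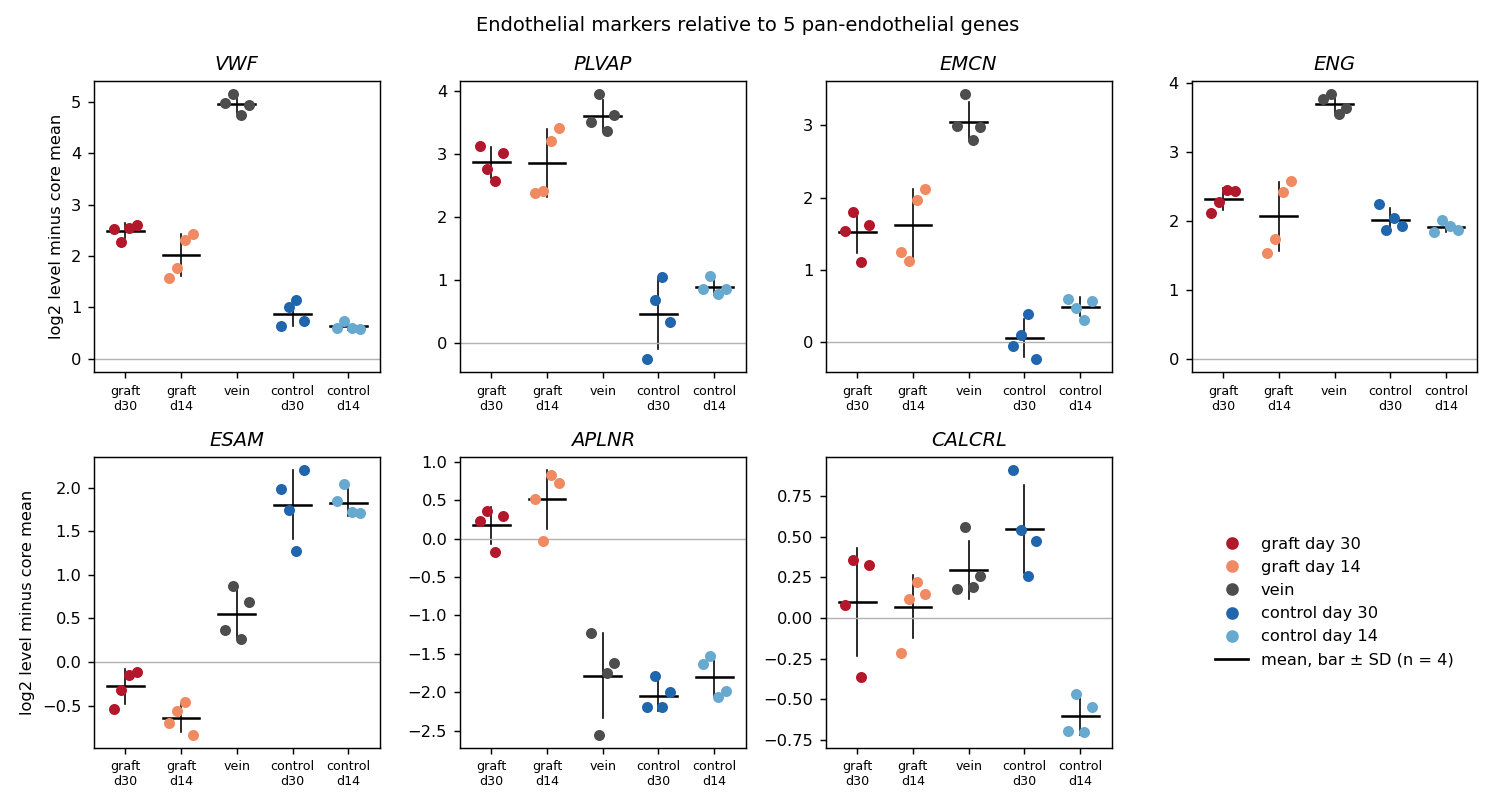
Each marker relative to the mean of 5 pan-endothelial genes of the same library (vertical axis, log2(FPKM + 1) of the marker minus the mean of the core, ranges differ between panels); points are libraries, lines are means and bars are ± SD of 4 libraries. ESAM lies lower in grafts and vein than in controls, APLNR lies high in grafts only, and the VWF values of vein lie between 4.75 and 5.15, above all other groups.

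The 7 markers were set in a wider list of 34 pan-endothelial genes, of which 22 were tested. Like the markers, this list was chosen with earlier results of these data known. In grafts of day 30, 18 of 22 rose and 0 fell (median log2 change 1.67, beside 0.18 over all tested genes), and in grafts of day 14, 17 of 22 rose and 0 fell (median 1.52, beside 0.26). Of all tested genes 26% rose at day 30 and 36.5% at day 14. In vein, 17 of 22 were higher than in the controls and 0 lower (median 1.30, beside 0.14), where 25.2% of all tested genes were higher. With both changes to the doubted libraries the counts were 12, 11 and 10 of 22. Calls over all tested genes also became fewer in that setting. VWF, PLVAP, EMCN, ENG and APLNR lay above the median of the pan-endothelial list on both days and CALCRL at day 14 alone, and ESAM lay below each of the 22 genes on both days.

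The genes with the smallest adjusted p at day 14 in that list were CD93, FLI1, KDR and HHEX. CD93, a receptor of endothelial and myeloid cells, averaged 43.0 ± 6.36 FPKM in grafts of day 30, 43.6 ± 22.1 in grafts of day 14, 40.1 ± 2.22 in vein, 4.02 ± 1.10 in controls of day 30 and 1.86 ± 0.679 in controls of day 14 (SD, n = 4 each), and grafts of day 30 and vein were a log2 change of 0.09 apart (SE 0.28, adjusted p = 0.837). KDR, the main receptor of vascular endothelial growth factor, had levels ordered as those of APLNR were between grafts, vein and controls, with 14.9 ± 4.02 FPKM in grafts of day 30 and 14.9 ± 4.87 in grafts of day 14, 3.53 ± 1.26 in vein, 1.16 ± 0.940 in controls of day 30 and 0.578 ± 0.0750 in controls of day 14 (SD, n = 4 each). FLI1, a transcription factor, rose by 0.86 at day 30 (SE 0.21, adjusted p = 0.00372) and by 2.54 at day 14 (SE 0.21, adjusted p = 2.26e-08). HHEX, another one, rose by 2.39 at day 30 (SE 0.18) and by 1.94 at day 14 (SE 0.18). Among those that did not pass at day 14, RASIP1 had a log2 change of 0.53 (adjusted p = 0.0631) and TIE1 one of 1.06 (adjusted p = 0.184).

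**Figure D4:**
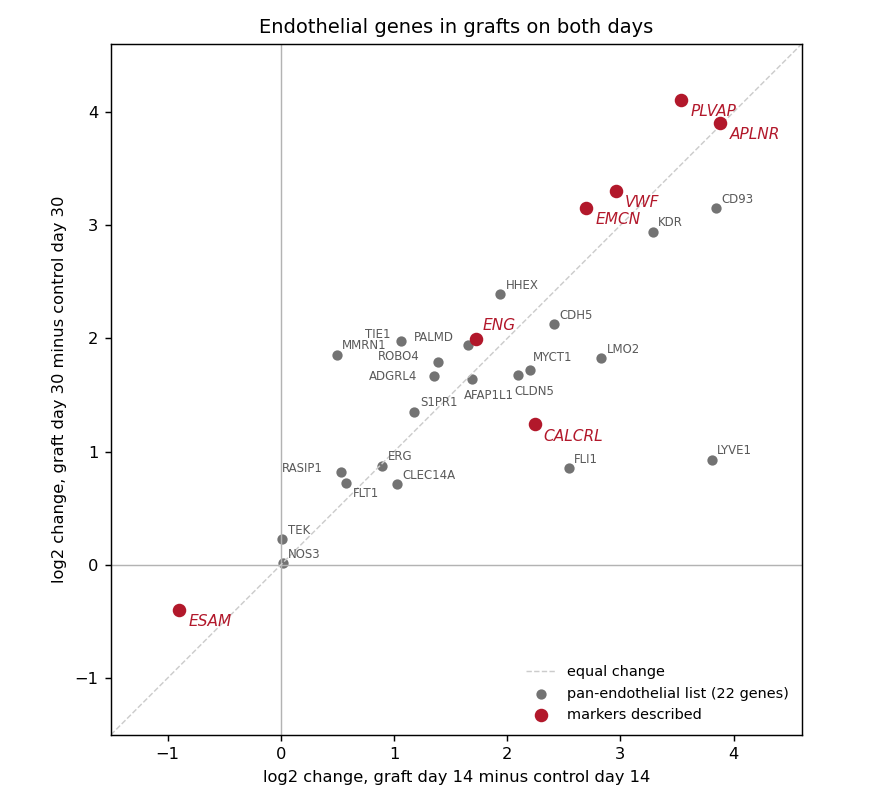
Log2 change in grafts against controls at day 14 (horizontal axis) and day 30 (vertical axis) for the 7 markers and the 22 tested genes of a pan-endothelial list, on the scale of log2(FPKM + 1), with a dashed line of equal change. PLVAP (3.54 and 4.11), APLNR (3.88 and 3.91) and CD93 lie at the upper end, and ESAM (-0.90 and -0.39) lies alone below 0 on both axes.

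Genes that work with each marker were counted by list, and the counts are read against the shares of all tested genes, 26% higher and 11.6% lower at day 30, 36.5% higher and 17% lower at day 14, and 25.2% higher and 12% lower in vein. For VWF, whose storage granules also hold ANGPT2, EDN1 and SELP, 7 of 17 listed partners were tested, and 3 rose at day 30 and 2 at day 14, with 0 lower on either day, a share below that of all tested genes at day 14 and above it at day 30, and 1 and 1 with both changes to the doubted libraries. ANGPT2, a ligand that loosens vessel walls, averaged 10.8 ± 1.98 FPKM in grafts of day 30 and 8.25 ± 1.88 in grafts of day 14, against 2.09 ± 1.01 in controls of day 30 and 2.12 ± 0.271 in controls of day 14 (SD, n = 4 each), log2 changes of 1.97 and 1.55. In vein it averaged 3.48 ± 0.528 FPKM (SD, n = 4), so it stood higher in grafts than in vein by 1.38 at day 30 (adjusted p = 3.92e-05) and by 1.03 at day 14 (adjusted p = 0.000395), in the opposite direction to VWF. EDN1, the vasoconstrictor endothelin, rose at day 30 by 2.01 (SE 0.45, adjusted p = 0.00185) with a wide spread of 2.44 to 29.3 FPKM in grafts.

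For PLVAP, 7 genes of caveolae were tested, and 0 rose and 3 fell at day 30, and 0 rose and 4 fell at day 14, while in vein 3 were higher and 0 lower. Fewer fell with the doubted libraries set aside: at day 14 it was 2 with the controls of day 14 as 1 sample and 2 with both changes, and at day 30 it was 2 without the mixture-like libraries and 0 with both changes. CAV1, the main coat protein of caveolae, averaged 209 ± 6.24 FPKM in grafts of day 30, 142 ± 38.3 in grafts of day 14, 490 ± 44.9 in vein, 211 ± 10.9 in controls of day 30 and 159 ± 1.59 in controls of day 14 (SD, n = 4 each). Its log2 change was -0.01 (adjusted p = 0.957) at day 30 and -0.20 (adjusted p = 0.224) at day 14. CAVIN1, which shapes caveolae, fell by 0.57 on the log2 scale at day 30 (SE 0.15) and by 1.12 at day 14 (SE 0.15). Caveolae are also abundant in smooth muscle cells, whose markers fell in the same libraries: of the tested ones 0 rose and 7 of 7 fell on both days, and the summed level of 9 smooth muscle genes was 1398 to 1845 FPKM in grafts of day 30 and 647 to 990 in grafts of day 14, against 6284 to 9118 in controls of day 30 and 8543 to 9080 in controls of day 14. Their part in the result was not tested.

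For EMCN, 7 listed genes of the surface coat were tested, and 0 rose and 2 fell at day 30, while 3 rose and 2 fell at day 14. With both changes 0 rose and 1 fell at day 30, and 1 rose and 0 fell at day 14, and with the controls of day 14 as 1 sample 1 rose and 2 fell at day 14. PODXL, a related sialomucin, rose at day 14 by 1.12 (SE 0.32, adjusted p = 0.007) and had a log2 change of 0.46 (adjusted p = 0.286) at day 30, with 40.0 ± 10.9 FPKM in grafts of day 30, 18.8 ± 11.1 in grafts of day 14, 13.6 ± 3.90 in vein, 28.3 ± 4.99 in controls of day 30 and 6.93 ± 0.769 in controls of day 14 (SD, n = 4 each). SDC1, a syndecan, rose at day 14 by 1.55 (SE 0.23).

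For ENG, 16 of 22 listed genes of its receptor complex, ligands and targets were tested, with 3 higher and 2 lower at day 30, 4 higher and 4 lower at day 14, and 7 higher and 2 lower in vein, so that the share that rose was below that of all tested genes in grafts of both days. In vein 3 were higher and 0 lower with either change to the doubted libraries and 2 and 0 with both, and in grafts 3 and 0 at day 30 and 2 and 1 at day 14 with both. ACVRL1, the receptor with which endoglin pairs, averaged 9.83 ± 0.161 FPKM in grafts of day 30, 6.21 ± 1.63 in grafts of day 14, 5.76 ± 1.46 in vein, 4.06 ± 1.24 in controls of day 30 and 2.60 ± 0.197 in controls of day 14 (SD, n = 4 each), and it rose at day 30 by 1.13 (SE 0.18) and at day 14 by 0.98 (SE 0.18). TGFBR2, the receptor that binds transforming growth factor beta first, rose by 1.17 (SE 0.13) and 1.09 (SE 0.13). TGFBR3, a co-receptor related to endoglin, fell by 0.75 (SE 0.23) and by 1.84 (SE 0.23) on the log2 scale in grafts and was higher in vein by 0.67 (SE 0.20).

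For ESAM, 13 of 20 listed junction genes were tested, with 6 higher and 1 lower at day 30 and 7 higher and 3 lower at day 14, and with both changes 5 and 1 at day 30 and 4 and 1 at day 14. CDH5, the cadherin of endothelial junctions, rose by 2.13 (SE 0.24) at day 30 and by 2.41 (SE 0.24) at day 14, and CLDN5, a tight junction protein, by 1.68 (SE 0.42) and 2.09 (SE 0.42). F11R, a junctional adhesion molecule, rose by 1.81 (SE 0.29) and 1.97 (SE 0.29). JAM2, another one, rose by 0.95 (SE 0.20) at day 30 and had a log2 change of -0.05 (adjusted p = 0.847) at day 14, and JAM3 fell at day 14 by 1.33 (SE 0.30). The direction of ESAM thus differed from that of CDH5, CLDN5 and F11R in the same libraries.

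For APLNR, 5 of 9 listed genes of the apelin system were tested, with 2 higher and 1 lower on both days, and with both changes 1 and 0 at day 30 and 2 and 1 at day 14. Apelin itself, APLN, stayed under the filter, with a mean of 0.13 FPKM in grafts of day 30, 0.365 in grafts of day 14 and 0.123 in vein, and was listed at 0 in all 8 controls. The rises were those of ARRB1 and ARRB2, arrestins that bind activated receptors, by 0.77 and 1.57 at day 30 and by 1.57 and 1.99 at day 14. For CALCRL, 5 of 14 listed genes were tested, with 0 higher and 0 lower at day 30 and 1 higher at day 14, and 3 higher in vein, of which 0 were called with both changes. RAMP2, the partner that makes it a receptor for adrenomedullin, averaged 300 ± 38.1 FPKM in grafts of day 30, 174 ± 107 in grafts of day 14, 360 ± 47.7 in vein, 199 ± 70.1 in controls of day 30 and 105 ± 10.1 in controls of day 14 (SD, n = 4 each). Its log2 change was 0.65 (adjusted p = 0.157) at day 30, 0.49 (adjusted p = 0.244) at day 14 and 1.34 in vein (SE 0.30, adjusted p = 0.00185). RAMP1 and RAMP3, under those symbols, were not used here.

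Of 11 tested genes of arterial endothelium 8 rose and 1 fell at day 30, where 26% of all tested genes rose, and 7 rose and 2 fell at day 14, where 36.5% rose. With both changes to the doubted libraries 7 rose at day 30 and 4 at day 14. GJA5 and GJA4, gap junction proteins of arterial endothelium, averaged 31.4 ± 4.79 and 32.8 ± 12.6 FPKM in grafts of day 30, against 0.825 ± 0.963 and 5.81 ± 0.707 FPKM in vein (SD, n = 4 each), and 10 of 11 arterial genes were higher in grafts of day 30 than in vein, with 0 lower, where 19.2% of all tested genes were higher. That count was 8 without the mixture-like libraries and 6 with both changes. Of 8 tested venous genes 5 rose at day 30 and 6 at day 14, with 0 lower. At day 14 it was 3 with the controls of day 14 as 1 sample, 4 without the mixture-like libraries and 2 with both changes, and at day 30 it was 3 with both changes. ACKR1, a chemokine-binding protein of venules, averaged 38.6 ± 5.01 FPKM in grafts of day 30, 14.5 ± 1.69 in grafts of day 14, 126 ± 24.3 in vein, 3.13 ± 1.84 in controls of day 30 and 7.99 ± 0.923 in controls of day 14 (SD, n = 4 each). NR2F2, the transcription factor of venous identity, averaged 5.09 ± 3.44 FPKM in grafts of day 30 and 14.9 ± 2.97 FPKM in vein (SD, n = 4 each), a log2 change of -1.52 (SE 0.42, adjusted p = 0.010). As a list, the 8 venous genes did not go 1 way against vein: 3 were higher and 2 lower in grafts of day 30 (median log2 change 0.82). Of all tested genes 19.2% were higher and 14.2% lower there. In grafts of day 14 it was also 3 and 2, beside 25.9% and 17.5% of all tested genes.

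The genes whose pattern was most like that of a marker were taken as the 3 with the highest Pearson r of log2(FPKM + 1) over the 20 libraries, among 4686 named genes, as a description, since libraries of a group share their condition. ENG was most like VWF (r = 0.990), followed by TF, transferrin (0.984), and EMCN (0.973). For PLVAP they were EMCN (0.980), DIPK2B (0.980) and ROBO4 (0.972), and for ENG they were VWF (0.990), PALMD (0.989) and TF (0.983). EMCN in turn was most like PLVAP (0.980), DIPK2B (0.973) and VWF (0.973).

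The other 3 markers had different nearest genes. APLNR was most like KDR (0.988), TGFBR2 (0.984) and ST8SIA4 (0.982), and CALCRL was most like TM4SF18 (0.973), VEGFC (0.957) and IGFBP4 (0.955). ESAM was most like TSPAN2, a tetraspanin (0.987), and DDAH2 (0.923). TSPAN2 averaged 27.2 FPKM in grafts of day 30, 15.5 in grafts of day 14, 32.6 in vein, 37.7 in controls of day 30 and 28.1 in controls of day 14, the same order as ESAM but for the places of grafts of day 30 and controls of day 14.

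Libraries of 1 group differed in the markers together. In grafts of day 14 replicates 1 and 2 stood above replicates 3 and 4 for all 7, for ESAM with 14.0 and 17.8 against 6.31 and 3.62 FPKM. The summed level of the pan-endothelial list followed, at 619, 634, 300 and 227 FPKM in replicates 1 to 4, while the summed level of 16 macrophage genes went the other way, at 678, 507, 1041 and 1136 FPKM, and that of 4 red cell genes was 3911, 3771, 1282 and 644 FPKM. The summed level of 13 genes listed for capillary endothelium also went the other way, at 365, 480, 1389 and 1622 FPKM, led by FABP4 and LPL, lipid-handling genes that macrophages and fat cells express as well, with means of 508 and 271 FPKM. Their part in the result was not tested.

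Controls of day 30 also differed among themselves. Replicate 3 was the highest of them for VWF, PLVAP, EMCN and ENG, and replicate 4 or 1 the lowest. The summed level of lymphatic endothelial genes was 22.1, 120, 217 and 34.0 FPKM in replicates 1 to 4, and that of the pan-endothelial list 169, 227, 319 and 119 FPKM. Both lists hold LYVE1 and MMRN1, so these sums are not separate observations and move together in part by construction. PROX1, the defining factor of lymphatic endothelium, reached at most 0.37 FPKM in any library. The part of the lymphatic genes in the levels of the 4 markers was not tested.

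Markers of other cells moved with the groups as well. Of 10 tested macrophage genes 9 rose at day 30 and 8 at day 14, with 0 lower, while 26% and 36.5% of all tested genes rose. The 16 macrophage genes summed to 562 to 861 FPKM in grafts of day 30 and 507 to 1136 in grafts of day 14, against 68.5 to 122 in vein, 23.2 to 40.1 in controls of day 30 and 49.1 to 56.5 in controls of day 14, with CD68 and AIF1 listed at 0 in all vein and control libraries. The 7 platelet genes, relevant to VWF and ESAM, summed to at most 15.5 FPKM in grafts and 11.45 in vein, against at most 25.4 in controls, and GP1BA and GP9, chains of the platelet receptor complex that binds VWF, averaged under 1 FPKM in all 5 groups. The part of macrophage and smooth muscle content in the markers' changes was not tested.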

How the data were processed

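Tools named per the submitters' processing notes are fastp, HISAT2, StringTie, RSEM and DESeq2; their roles, their versions and the genome build are not given in the sources used here. What the authors deposited is a single table of FPKM, 24964 transcripts by 20 libraries, without counts, so depth, counting errors and coordinates are not given here. FPKM was summed to 23669 genes (1278 with several transcripts), and the 8657 that reached 1 FPKM in 4 or more libraries were tested: 6907 named in the table, 613 named through RefSeq and 1137 without a name. Of these 1981 were listed at 0 in some library. The 7 markers and all gene lists were chosen with earlier results of these data known.

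A limma model (eBayes with a trend in the level, 1 mean for each group, 20 libraries) of log2(FPKM + 1) gave log2 changes and SE, two-sided, with Benjamini-Hochberg adjustment over all tested genes and a threshold of 0.05. Levels relative to the core were tested by exact permutation, adjusted over 28 relations. Named genes are the 7 markers, 3 genes of most similar pattern for each, up to 4 list members with the smallest adjusted p at day 14 plus up to 2 that did not pass, and members of partner lists; 1 gene of similar pattern is not reported here. GJA5, ACKR1, NR2F2 and other named genes outside this rule were chosen after their values were seen. Mixture-like libraries were those nearest, in median absolute log2 difference, to any weighted mean of their 3 companions.

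Alternatives were 3 scalings (median-of-ratios, TPM, quantile), a 0.1 pseudocount, no filter or one at 5 FPKM, only the compared groups, library weights, the replicate number as a block, each library left out, controls of day 14 averaged to 1 sample, mixture-like libraries dropped, both of these, and genes listed at 0 left out. Added after seeing the data was a block with vein numbered by library name. The procedure was tested on simulated data. Statistics were run in limma 3.58.1 under R 4.3.3, and scipy 1.17.1, pandas 2.3.3, numpy 2.4.6 and matplotlib 3.10.9 were used under Python 3.11.15.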

Additional observations from a re-analysis of the deposited data

Results flagged for a closer look

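Within the vein group, replicate 2 stood far from the other 3 libraries for EMCN, at 154.2 FPKM against 104 to 110 FPKM, and for ENG, at 204.4 FPKM against 175 to 180 FPKM. Its gap to the nearest library was 0.871 of the group's range for EMCN and 0.830 for ENG, above Dixon's 95% critical value for 4 libraries. The same library was also the highest in vein for VWF, PLVAP, ESAM and CALCRL and the lowest for APLNR. Over 7 genes and 5 groups 35 groups were examined, and chance marks about 1 in 20.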

How the results depend on the processing

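Of the 7 markers called, counts held within 1.5 times under every alternative run for grafts against controls on both days, for vein against controls and for grafts of day 14 against vein, with 5 to 7, 6 and 4 to 7 calls. For grafts of day 30 against grafts of day 14 the count of 3 became 5 with TPM scaling, 7 with library weights (whose estimation did not fully converge), 1 with only the compared groups, 0 without the mixture-like libraries and 0 with both changes to the doubted libraries, and lay between 2 and 4 with each library left out. For controls of day 30 against day 14 the count of 3 became 1 with median-of-ratios scaling and without the mixture-like libraries, 5 with library weights, and 0 with controls of day 14 as 1 sample and with both changes, and lay between 1 and 3 with each library left out. For the difference of the graft effects the count of 0 became 1 with TPM scaling and 6 with library weights, and lay between 0 and 1 with each library left out. For grafts of day 30 against vein the count of 4 became 2 with both changes. With fewer libraries fewer calls can be made; otherwise the cause was not tested.

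Values that turned in sign were not called. For APLNR the difference of the graft effects became -0.26 with a pseudocount of 0.1 and -0.0455 with TPM scaling, and ran between -0.21 and 0.25 with each library left out. PLVAP in grafts of day 30 against vein became 0.0378 with library weights (-0.15 to 0.11 with each library left out), and in controls of day 30 against day 14 it became -0.0402 without the mixture-like libraries and -0.0412 with both changes (-0.26 to 0.33). CALCRL in grafts of day 14 against vein became 0.0296 without the mixture-like libraries and 0.0296 with both changes (-0.41 to 0.16). With each library left out, EMCN in controls between days ran between -0.17 and 0.26, ESAM in vein against controls between -0.17 and 0.0336, and ESAM in grafts of day 30 against vein between -0.19 and 0.015. ENG relative to the core at day 30 became -0.12 with a pseudocount of 0.1.

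Replicate numbers are shared between groups, and same-numbered libraries did not clearly deviate together (correlations of -0.18 to 0.193). This cannot decide whether same-numbered libraries come from the same animal, since deviations within a group can have other sources, and the labels leave it open. With the replicate number as a block the counts were 6 and 7 for grafts against controls at day 30 and day 14, 3, 0 and 3 for the comparisons between days, 6 for vein, and 4 and 5 for grafts against vein, as without it. No depth is given, so counting error at levels near 1 FPKM, as for APLNR in controls, is unknown.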
